A study of Homo sapiens with 12 samples.

Results

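The ATF4 stress effectors described here are 10 genes, ATF4, DDIT3, ATF3, CEBPB, TRIB3, CHAC1, DDIT4, SESN2, PPP1R15A and VLDLR, which were picked by name as the transcription factors and stress effectors of the integrated stress response. They are 10 of the 60675 gene IDs of the table, and all 10 passed the filter on low counts that left 15374 genes. The choice was made with their values in these libraries already known, so their levels and fold changes are given as a description and without p-values. RNA was measured in HT29, a human colorectal adenocarcinoma cell line, in a study that asked whether a water extract of ACD, the herb Aconitum carmichaeli Debeaux, acts more on the brain or on the intestine. After 24 h the 4 groups were vehicle and the extract at 20 µg/mL (low dose), 100 µg/mL (medium dose) and 500 µg/mL (high dose). Each had 3 libraries of HT29 cells for which the labels name no genetic change. The vehicle was PBS with 2% DMSO, and the stock of the extract was made in the same solvent. The 2% is the strength before the solvent was added to the medium, so the cells met less DMSO. HT29 is 1 line, and nothing in the labels says that the 3 libraries of a group came from separate cultures, so the spread within a group may be technical.

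The integrated stress response begins when a kinase phosphorylates the initiation factor eIF2, which lowers protein synthesis in general while the mRNA of ATF4 is translated more. ATF4, a basic leucine zipper (bZIP) factor, then pairs with C/EBP and other bZIP proteins on composite DNA sites and induces genes of amino acid supply, of glutathione turnover and of growth restraint. Because ATF4 is controlled largely at translation, its mRNA level is a partial measure of its activity. Prolonged activity is known to lead, with DDIT3 (CHOP), towards cell death, while TRIB3 and PPP1R15A act as brakes on the response.

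The composite sites are shown because they are the DNA sites on which ATF4 pairs with other bZIP proteins, as described above. The window, from 1000 bases before to 500 bases after the RefSeq starts (GRCh38.p14), was chosen after the data were seen. In it the 8 letters TTGCATCA, searched on both strands, were found in 5 of the 10 effectors, against 4.01% of 27305 genes. In the window planned first, the 250 bases before the starts, CHAC1 alone of the effectors held them, against 0.967% of all genes. Stretches of 28 bases follow, read on the strand of the gene, with the motif in capitals.
DDIT3 (chr12:57520803-57520830, minus strand): ttgccaaacaTTGCATCAtccccgcccc
TRIB3 (chr20:380882-380909, plus strand): tagctccggtTTGCATCAcccggaccgg
CHAC1 (chr15:40953252-40953279, plus strand): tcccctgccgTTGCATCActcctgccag
DDIT4 (chr10:72272968-72272995, plus strand): tcctcggtccTGATGCAAccgtctggat
VLDLR (chr9:2621339-2621366, plus strand): gcaacgatagTTGCATCAgcgctaactg
The motif of DDIT4 is the same one read from the other strand. The motifs began at position −303 from the nearest start in DDIT3, −209 in CHAC1, −946 in DDIT4 and −438 in VLDLR. TRIB3 held 3 copies, at −403, −370 and −337, and the 28 bases around each were identical, spaced 33 bases apart. In GENCODE 44, the TRIB3 and CHAC1 stretches lie in a UTR exon of an annotated transcript, the DDIT3 stretch in an intron of DDIT3 and of MBD6 on the opposite strand, the VLDLR stretch in an exon of VLDLR-AS1, and the DDIT4 stretch in an exon of an unnamed gene on the opposite strand.

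The looser form TGATGNAA, of which TTGCATCA read on the other strand is a case, was in 19.8% of all genes and added ATF3 and SESN2. Any composite site (TGATGNAA, TTGCATCA or TTGCGTCA) was thereby found in 7 of the 10 effectors and in 20.9% of all genes. In the 250 bases before the starts alone, the values were 2 of the 10, ATF3 and CHAC1, and 4.46%. The stretches of ATF3 and SESN2 and a TTGCGTCA site of CHAC1, the latter pair with the motif on the other strand, are shown with the cAMP response element TGACGTCA of PPP1R15A, which is a different motif and was in 3.36% of all genes.
ATF3 (chr1:212565206-212565233, plus strand): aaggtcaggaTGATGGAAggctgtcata
SESN2 (chr1:28259212-28259239, plus strand): tgaagtccctTTTCATCAcgcaacccta
CHAC1 (chr15:40953195-40953222, plus strand): gcccgccgccTGACGCAAtccgaggcgc
PPP1R15A (chr19:48872353-48872380, plus strand): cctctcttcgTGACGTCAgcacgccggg
The ATF3 and SESN2 stretches lie outside annotated genes in GENCODE 44, and those of CHAC1 and PPP1R15A in a UTR exon of an annotated transcript. These motifs began at −191 in ATF3, −296 in SESN2, −266 in CHAC1 and −58 in PPP1R15A. ATF3 also held a cAMP response element at −497 of its other start. The composite letters were not found in these windows of ATF4, CEBPB or PPP1R15A, and the ER stress element was found in none of the 10. A match of letters is a description of the sequence, since binding was not measured here.

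**Figure D1:**
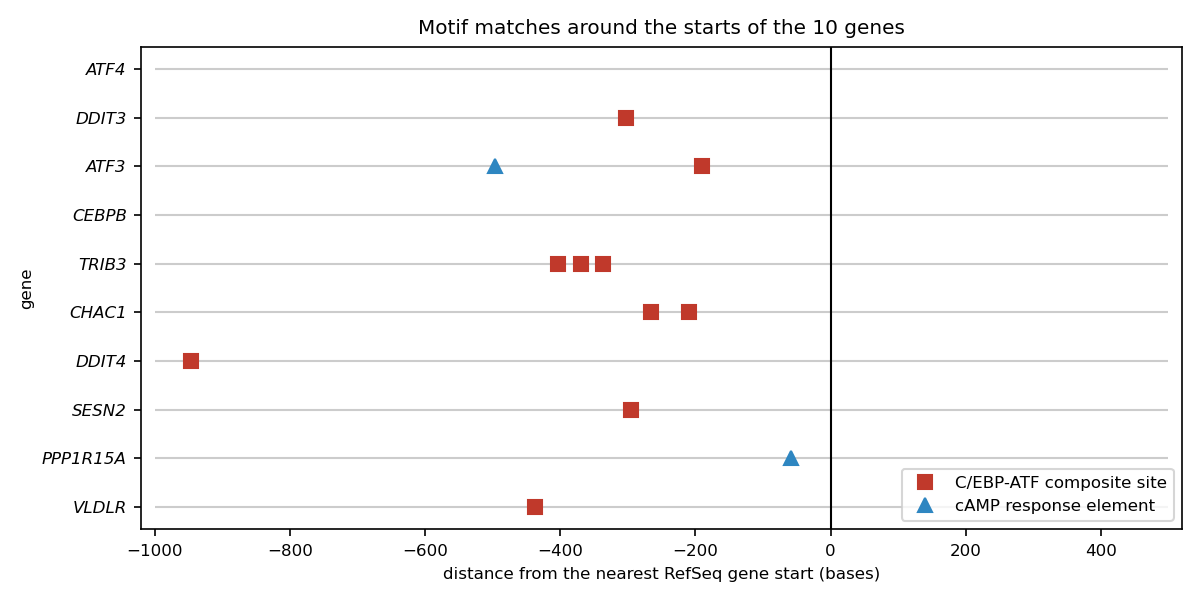
Position of each motif in the 10 effectors, as the distance in bases from the nearest RefSeq start, from 1000 bases before to 500 after. Markers stand for the composite sites and the cAMP response element, and a row with no marker held none of them. The 3 copies of TRIB3 lie between −403 and −337.

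The total expected counts were between 15941255 and 33866644 per library. All 10 markers of colon epithelium were above 1 CPM (expected counts scaled to the library size after TMM) in each group, with sums of 10960 to 13150 CPM, whereas 4 of 12 markers of other cell types exceeded 1 CPM, with sums of 6.17 to 9.67 CPM. The mitochondrial rRNAs took 0.982% to 1.22% of the counts in the vehicle and low-dose libraries, 1.96% to 2.18% at the medium dose and 11.3% to 12.5% at the high dose. High-dose replicate 2 stood apart, with an SD of 0.502 of its log2 differences from the other libraries of its group over 10626 genes, against 0.103 to 0.293 in the other 11 libraries, so values without it are given for the effectors. In bulk RNA, a change in all cells and a change in a part of the cells cannot be told apart.

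At the high dose, all 10 effectors were above their vehicle mean in each of the 3 libraries, by a median log2 difference of 1.08, 0.98 and 1.12. The fitted median log2 fold change of the effectors was 1.09, against 0.01 over all genes tested. In the description by the rule for DEGs (adjusted p under 0.05 in edgeR and a fold change over 1.5), 8 of the 10 passed upward, as 1.26% of all genes did, and in 9 of the 10 the high-dose libraries lay wholly above the vehicle libraries, where 10.5% of all genes did. Nothing is read from these counts, since the genes were chosen with this contrast known. The median was 1.09 with the mitochondrially encoded genes left out of the library sizes, and leaving out high-dose replicate 2 gave 1.10. At the low and medium doses, the medians were 0.04 and 0.10, and with all libraries no effector reached a fold change of 1.5. The 3 doses were compared with the same vehicle libraries.

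**Figure D2:**
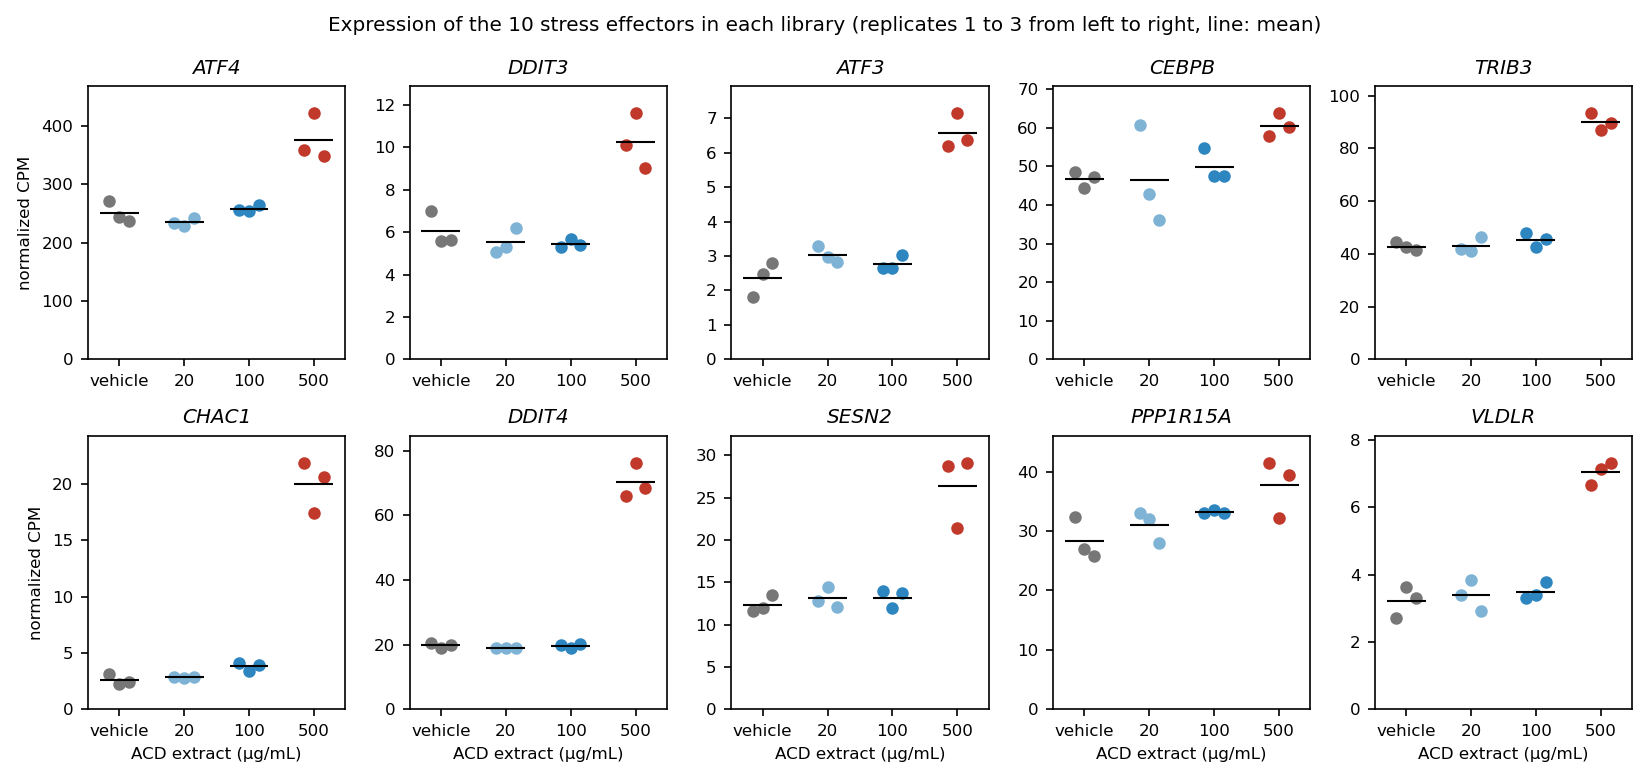
CPM of each effector in every library, by group, on linear axes that differ between the genes. Points stand for single libraries and short lines for the mean of 3. The vehicle, low-dose and medium-dose libraries sit close together in most genes, and CHAC1 is at 17.5 to 21.9 CPM in the high-dose libraries against 2.27 to 3.14 CPM in the vehicle libraries.

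Among the transcription factors, ATF4 (ENSG00000128272, chr22:39519695-39522683 on GRCh38) had the most reads. It was at 271, 244 and 237 CPM in vehicle replicates 1 to 3, at 234, 228 and 242 CPM at the low dose, at 256, 254 and 264 CPM at the medium dose and at 358, 421 and 349 CPM at the high dose. The 3 high-dose libraries lay above all others. The vehicle libraries overlapped both lower doses, and the medium dose lay above the low dose. The means were 250.5 ± 18.1 CPM in vehicle and 376 ± 39.6 CPM at the high dose (SD, n = 3), a log2 fold change of 0.58 ± 0.09 (SE), which is 1.50-fold and lies on the limit for a DEG. Without high-dose replicate 2, the highest library, it was 0.50, and ATF4 met the rule for DEGs in 13 of 20 alternative settings, not without that library nor without vehicle replicate 2 or 3. At the low and medium doses its log2 fold changes were −0.10 and 0.04.

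DDIT3 (ENSG00000175197, chr12:57516588-57521737), which encodes CHOP, the bZIP factor that promotes cell death in a lasting stress response, was at 6.99, 5.58 and 5.62 CPM in vehicle. It was at 5.08, 5.29 and 6.18 CPM at the low dose, 5.28, 5.68 and 5.41 CPM at the medium dose and 10.1, 11.6 and 9.01 CPM at the high dose. The high-dose libraries did not overlap the rest, and the mean went from 6.06 ± 0.80 to 10.3 ± 1.30 CPM (SD, n = 3). The log2 fold change was 0.75 ± 0.13 at the high dose and 0.67 without replicate 2, and it was −0.13 and −0.14 at the lower doses. Exons of DDIT3 overlap those of MARS1, which is on the opposite strand and is itself a target of ATF4. Exons of MBD6 on the opposite strand and of an unnamed protein-coding gene on the same strand overlap those of DDIT3 as well. The libraries were made with a kit that keeps the strand, but whether the counting used it is not given in the sources used here. Strand would in any case not separate the gene on the same strand, so the value of DDIT3 is uncertain to that extent. MARS1 was at 158.6 CPM in vehicle and 233.5 CPM at the high dose, a log2 fold change of 0.56.

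ATF3 (ENSG00000162772, chr1:212565334-212620777), a bZIP factor that is induced by many stresses and can repress transcription, was scarce in vehicle, at 1.82, 2.48 and 2.81 CPM. It was at 3.30, 2.96 and 2.82 CPM at the low dose, 2.66, 2.64 and 3.03 CPM at the medium dose and 6.21, 7.15 and 6.37 CPM at the high dose. The high-dose libraries were all above the other 9, and ATF3 was the only effector whose low-dose libraries lay wholly above vehicle, by a narrow gap, where 11.4% of all genes did. The mean of 2.37 ± 0.51 CPM in vehicle and of 6.58 ± 0.50 CPM at the high dose (SD, n = 3) gave a log2 fold change of 1.45 ± 0.15. It was 1.39 without high-dose replicate 2 and went from 1.31 to 1.58 as single libraries were left out, with the extremes set by vehicle replicates 1 and 3, and it was 0.34 and 0.21 at the low and medium doses.

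CEBPB (ENSG00000172216, chr20:50190830-50192668), a C/EBP partner of ATF4, differed little. It was at 48.6, 44.4 and 47.3 CPM in vehicle, 60.7, 43.0 and 36.2 CPM at the low dose, 54.7, 47.7 and 47.5 CPM at the medium dose and 57.8, 63.8 and 60.1 CPM at the high dose. The high-dose libraries were above vehicle but overlapped the low dose, whose coefficient of variation of 27.1% was the widest of any effector in any group. The log2 fold change at the high dose was 0.37 ± 0.15, 1.30-fold, and 0.34 without replicate 2, and CEBPB met the rule for DEGs in 0 of 20 alternative settings. CEBPB-AS1 overlaps it, with the same limit on strand.

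TRIB3 and PPP1R15A are the brakes of the response. TRIB3 (ENSG00000101255, chr20:362835-397559) is a pseudokinase that binds ATF4 and CHOP and limits their activity, and its 3 identical TTGCATCA stretches are given above. It was at 44.4, 42.6 and 41.3 CPM in vehicle, 41.7, 41.0 and 46.3 CPM at the low dose, 47.8, 42.7 and 45.7 CPM at the medium dose and 93.3, 87.0 and 89.6 CPM at the high dose. The first 3 groups overlapped and the high dose lay far above them with a coefficient of variation of 3.49%. The mean went from 42.7 ± 1.54 to 90.0 ± 3.14 CPM (SD, n = 3), a log2 fold change of 1.07 ± 0.07, which stayed between 1.05 and 1.10 as single libraries were left out, with 1.10 without high-dose replicate 2.

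PPP1R15A (ENSG00000087074, chr19:48872212-48876059) encodes GADD34, the subunit that directs protein phosphatase 1 to eIF2 and so ends the block of translation. It was at 32.4, 26.9 and 25.8 CPM in vehicle, 33.0, 32.0 and 28.0 CPM at the low dose, 33.1, 33.5 and 33.0 CPM at the medium dose and 41.4, 32.1 and 39.5 CPM at the high dose. It was the only effector whose high-dose libraries overlapped vehicle, through replicate 2, while its medium-dose libraries lay narrowly above vehicle, as did those of CHAC1 and of 14.5% of all genes. The log2 fold change was 0.23 ± 0.11 at 100 µg/mL and 0.42 ± 0.11 at 500 µg/mL, and 0.52 without replicate 2, all under 1.5-fold.

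The remaining effectors act on metabolism. CHAC1 (ENSG00000128965, chr15:40952962-40956512) encodes an enzyme that breaks down glutathione, and it holds both a TTGCATCA and a TTGCGTCA site. It was at 3.14, 2.27 and 2.37 CPM in vehicle, 2.85, 2.78 and 2.82 CPM at the low dose, 4.09, 3.36 and 3.93 CPM at the medium dose and 21.9, 17.5 and 20.7 CPM at the high dose. The medium-dose libraries already lay above all vehicle and low-dose libraries, and the high dose lay far above those. The means were 2.59 ± 0.47, 2.82 ± 0.03, 3.79 ± 0.38 and 20.0 ± 2.27 CPM (SD, n = 3). Its log2 fold change was 0.56 ± 0.15 (1.48-fold) at 100 µg/mL and 2.97 ± 0.14 (7.86-fold) at 500 µg/mL, the highest among the effectors, and without high-dose replicate 2 the latter was 3.07. The medium-dose value, which is just under the limit of 1.5-fold, passed it without vehicle replicate 1 (0.70) or medium-dose replicate 2 (0.65), and CHAC1 met the rule for DEGs at that dose in 0 of 20 alternative settings. The vehicle values rest on 54 to 75 reads per library and the high-dose values on 247 to 672.

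DDIT4 (ENSG00000168209, chr10:72273919-72276036) encodes REDD1, an inhibitor of the growth kinase complex mTORC1. It was at 20.5, 19.0 and 19.8 CPM in vehicle, 18.9, 18.9 and 19.1 CPM at the low dose, 19.7, 18.8 and 20.1 CPM at the medium dose and 66.0, 76.2 and 68.5 CPM at the high dose. All 9 libraries up to the medium dose lay between 18.8 and 20.5 CPM, so the difference lay in the last step alone. The log2 fold change at the high dose was 1.83 ± 0.07, 3.55-fold, and 1.77 without replicate 2, and it was −0.06 and −0.02 at the lower doses.

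SESN2 (ENSG00000130766, chr1:28259518-28282491) encodes Sestrin2, a leucine sensor that also restrains mTORC1. It was at 11.6, 11.9 and 13.5 CPM in vehicle, 12.8, 14.5 and 12.1 CPM at the low dose, 14.0, 11.9 and 13.7 CPM at the medium dose and 28.8, 21.4 and 29.1 CPM at the high dose. The high dose did not overlap the rest, although replicate 2 was well under the other 2 libraries of its group. The log2 fold change was 1.11 ± 0.13, 2.16-fold, and 1.23 without replicate 2.

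VLDLR (ENSG00000147852, chr9:2621182-2660056) encodes the very low density lipoprotein receptor, which takes up lipoproteins. It was at 2.70, 3.64 and 3.30 CPM in vehicle, 3.40, 3.84 and 2.91 CPM at the low dose, 3.31, 3.39 and 3.77 CPM at the medium dose and 6.66, 7.15 and 7.32 CPM at the high dose. The first 3 groups overlapped and the high dose did not overlap them. The log2 fold change was 1.12 ± 0.13, 2.17-fold, and 1.10 without replicate 2. VLDLR-AS1 overlaps it on the opposite strand, with the same limit on strand.

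High-dose replicate 2 did not shift the effectors one way. Of the 3 high-dose libraries it was the highest for the 4 transcription factors and for DDIT4, and the lowest for TRIB3, CHAC1, SESN2 and PPP1R15A. From the medium to the high dose, 9 of the 10 effectors did not overlap, where 8.32% of all genes lay higher in this way. By the rule for DEGs 7 of the 10 passed, where 0.319% of all genes did so upward. Nothing is read from the counts of this step either, since the genes were chosen with their values known. The log2 differences of that step were 2.41 ± 0.13 for CHAC1, 1.85 ± 0.07 for DDIT4, 1.24 ± 0.14 for ATF3 and 0.55 ± 0.09 for ATF4. Between the low and the medium dose only ATF4 and CHAC1 did not overlap, where 6.46% of all genes lay higher in this way, with log2 differences of 0.14 and 0.42.

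**Figure D3:**
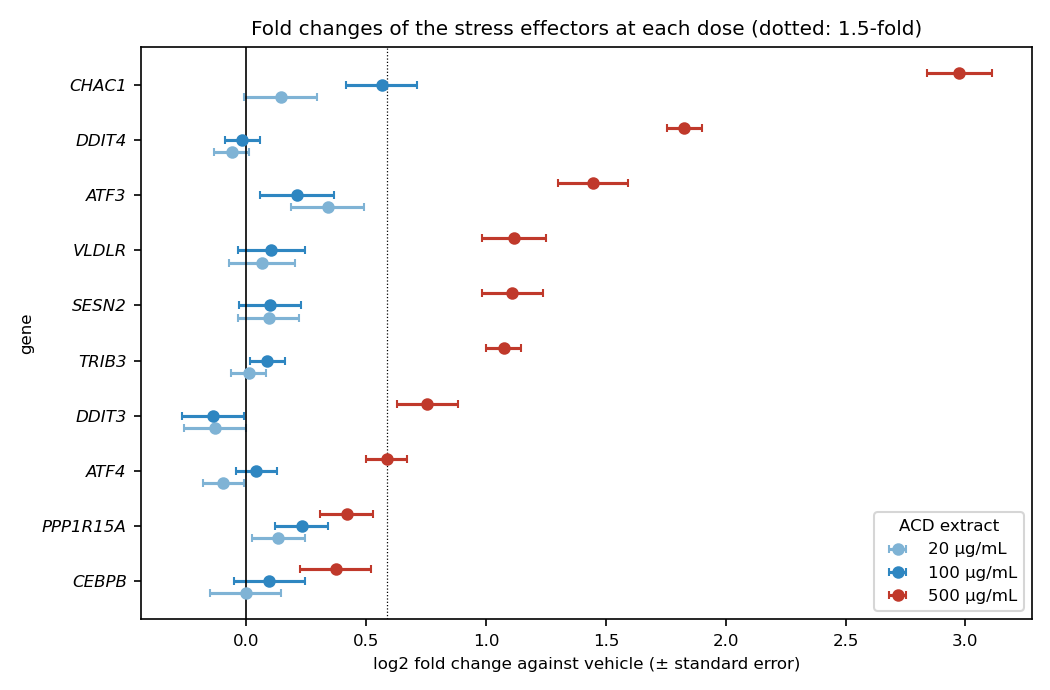
Log2 fold change of each effector against vehicle at 20, 100 and 500 µg/mL, with bars of 1 SE from the edgeR fit. The dotted line marks a fold change of 1.5 upward. The low-dose and medium-dose values lie below the line, and at the high dose CHAC1 (2.97) and DDIT4 (1.83) lie highest while CEBPB (0.37) and PPP1R15A (0.42) stay below the line.

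The order of the levels changed at the high dose. Per kilobase of the canonical transcript, the vehicle levels were 177 CPM for ATF4, 25.4 for CEBPB, 18.1 for TRIB3, 12.1 for PPP1R15A, 11.3 for DDIT4, 6.72 for DDIT3, 3.55 for SESN2, 1.71 for CHAC1, 1.22 for ATF3 and 0.348 for VLDLR. PPP1R15A and DDIT4 overlapped there, and the other neighbours did not. At the high dose ATF4 was at 265 CPM per kilobase, and DDIT4 (40.3) and TRIB3 (38.2), which overlapped each other, had passed CEBPB (32.9). PPP1R15A (16.0) overlapped CHAC1 (13.2), which overlapped DDIT3 (11.4) and had been at the eighth place in vehicle. SESN2 (7.63), ATF3 (3.39) and VLDLR (0.765) followed without overlap.

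The genes whose log2 CPM followed ATF4 most closely over the 12 libraries were SLC3A2, a subunit of amino acid transporters (Pearson's r = 0.993), IFRD1 (0.985), MTHFD2, a mitochondrial folate enzyme (0.975), asparagine synthetase ASNS (0.970) and the seryl-tRNA synthetase SARS1 (0.969). For the mean of the 10 effectors they were MT-RNR2 (0.984), PSAT1 (0.982), PCK2 (0.981), ASNS (0.975) and MT-RNR1 (0.973), where MT-RNR2 and MT-RNR1 are the mitochondrial rRNAs. These values describe 12 libraries in 4 dose groups of which the high dose stands apart, so any gene that moved at the high dose alone scores high. The part of the mitochondrial rRNAs in the results of the effectors was not tested.

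The genes around the effectors were taken from 11 lists of 199 genes, of which 187 were tested. Some genes stand in more than 1 list, and each counts once in these totals. At the high dose 29 rose and 6 fell by edgeR with Benjamini–Hochberg adjustment over all genes, where 1.26% of all genes rose and 1.68% fell. At the medium dose 1 rose and 1 fell, where 0.676% of all genes were DEGs, and 35 had an unadjusted p under 0.05, as 11.7% of all genes had. At the low dose edgeR and DESeq2 both called 0 of the 187, where 0.111% of all genes were DEGs, and 10 had an unadjusted p under 0.05, as 7.95% of all genes had. The lists were written with earlier results known, so they are described by counts and medians, with means ± SD over 3 libraries and log2 fold changes ± SE for named genes.

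The upstream machinery held no DEG at the high dose by edgeR or DESeq2, where 2.93% of all genes were DEGs by edgeR. The list of 9 eIF2 kinases and their regulators had a median log2 fold change of 0.06. Of these 9 genes 2, neither of them a kinase, had an unadjusted p under 0.05, as 20.1% of all genes had. IMPACT, which restrains the kinase GCN2, had the smallest p of them (log2 fold change 0.39 ± 0.10, adjusted p = 0.0427 by edgeR, under 1.5-fold). The list of eIF2, eIF2B and the eIF2 phosphatase, which also holds other initiation factors, had 15 genes and a median of 0.14. Of these 15 genes 3 had an unadjusted p under 0.05 and none passed the adjusted p. PPP1R15B, the constitutive paralog of PPP1R15A, was at 109.9 CPM in vehicle and 129.6 CPM at the high dose (0.24 ± 0.08, adjusted p = 0.122).

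The targets of ATF4 for amino acid supply moved most often. Of 35 tested, 19 rose and 0 fell at the high dose by edgeR, where 1.26% of all genes rose and 1.68% fell. The counts were 20 and 0 by DESeq2, and 32 up and 0 down at an unadjusted p under 0.05. Of the 35, 32 passed the adjusted p, which 5.77% of all genes did, and the median log2 fold change was 0.64. PSAT1, an enzyme of serine synthesis, rose from 100.0 ± 3.16 to 272 ± 25.7 CPM (1.44 ± 0.08, adjusted p = 8.53e-07). ASNS rose from 56.0 ± 0.47 to 237 ± 54.8 CPM (2.08 ± 0.13, adjusted p = 1.94e-06). PCK2, the mitochondrial PEP carboxykinase, rose from 24.5 ± 1.62 to 48.1 ± 1.49 CPM (0.98 ± 0.08, adjusted p = 1.82e-05). SLC7A11, the cystine transporter, rose already at the medium dose (0.61 ± 0.10, adjusted p = 0.0106), a call that held in 17 of 20 alternative settings and was lost without vehicle replicate 1 or 2 or medium-dose replicate 2. The composite letters were in the windows of 21 of the 28 genes of this list that have a promoter entry, against 7 of the 10 effectors.

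Among 23 other stress targets of ATF4 and CHOP, 9 rose and 2 fell at the high dose, where 1.26% of all genes rose and 1.68% fell. The list had a median of 0.52, and some of its rising genes, such as CARS1, are counted in other lists as well. ADM2, a peptide hormone of the adrenomedullin family, rose from 1.58 ± 0.23 to 8.98 ± 2.76 CPM (2.53 ± 0.25, adjusted p = 9.1e-05). The cysteinyl-tRNA synthetase CARS1 rose by 0.64 ± 0.07 (adjusted p = 0.000161), and the stress cytokine GDF15 by 0.68 ± 0.07 (adjusted p = 0.000162). TXNIP, an inhibitor of thioredoxin and of glucose uptake, fell from 56.3 ± 2.50 to 21.8 ± 6.17 CPM (−1.39 ± 0.15, adjusted p = 0.000171). KLHL24 fell as well (−0.62 ± 0.10, adjusted p = 0.00396), a call that was lost in 3 of 20 alternative settings, among them without vehicle replicate 2 or 3.

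Of 32 other bZIP factors, 2 rose and 1 fell at the high dose, where 1.26% of all genes rose and 1.68% fell. JDP2, the closest relative of ATF3, rose from 4.06 ± 0.17 to 8.75 ± 0.55 CPM (1.10 ± 0.13, adjusted p = 0.000357). CREB3L1, a membrane-bound bZIP factor, fell from 193 ± 6.29 to 106 ± 27.2 CPM (−0.86 ± 0.16, adjusted p = 0.00622), a call that was lost with edgeR on vehicle and 1 dose (adjusted p = 0.101). FOSB rose by 0.81 ± 0.17 (adjusted p = 0.0177), which was lost in 5 of 20 alternative settings, without vehicle replicate 2 or 3 and without high-dose replicate 1 or 3 among them.

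The paralogs of the effectors did not share one direction. Of 13 tested, 1 (JDP2) rose and 2 fell, with a median of 0.23, where 1.26% of all genes rose and 1.68% fell. Both falling genes were sestrins. SESN1 fell from 33.7 ± 0.87 to 20.4 ± 3.03 CPM (−0.73 ± 0.11, adjusted p = 0.00193), and SESN3 from 2.87 ± 0.57 to 1.39 ± 0.18 CPM (−1.01 ± 0.24, adjusted p = 0.0283), where SESN2 was higher at the high dose. The call of SESN3 held in 14 of 20 alternative settings and was lost, among others, without vehicle replicate 1 or 3 or high-dose replicate 1 or 3.

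**Figure D4:**
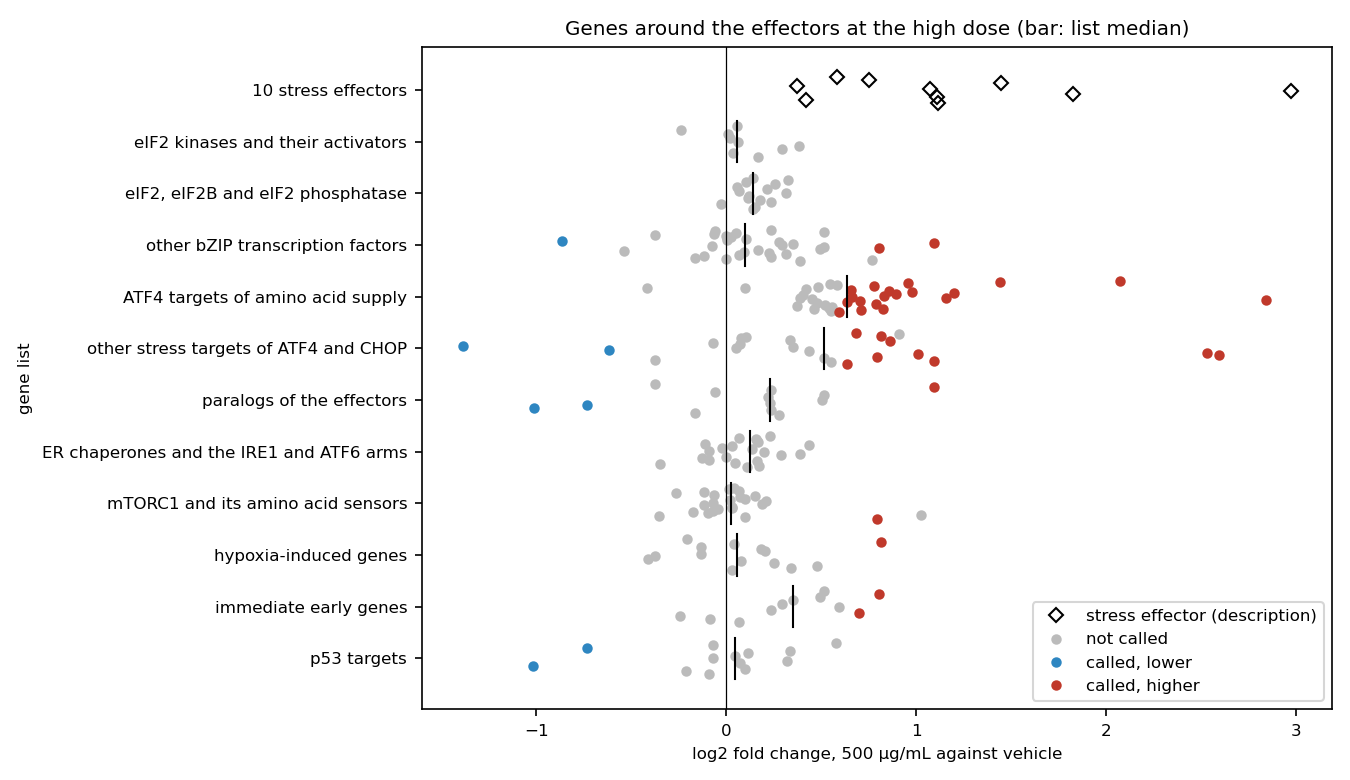
Log2 fold change at the high dose of each tested gene of the 11 lists, with the 10 effectors as open diamonds. Red and blue points mark DEGs that rose and fell, grey points mark the other genes, and the short bar in each list row marks its median. The row of amino acid supply has its median at 0.64 with no DEG under 0, and the rows of eIF2 kinases, of eIF2 and of ER chaperones hold no DEG.

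Of the other stress pathways, each list held 0 to 2 DEGs at the high dose, where 2.93% of all genes were DEGs by edgeR. At that dose 20.1% of all genes had an unadjusted p under 0.05. Of 22 ER chaperones and genes of the IRE1 and ATF6 arms, none was a DEG at 500 µg/mL by edgeR or DESeq2. Of these 22, 6 had an unadjusted p under 0.05 (5 up and 1 down), 3 passed the adjusted p, and the median was 0.13. HERPUD1, which ATF4 also induces, had the smallest p of them (35.5 to 48.0 CPM, 0.43 ± 0.07, adjusted p = 0.00234, under 1.5-fold). Of 24 genes of mTORC1 and its sensors, EIF4EBP1, which is at once an ATF4 target and a repressor of translation, rose at the high dose (0.79 ± 0.13, adjusted p = 0.00342), which was lost with edgeR on vehicle and 1 dose (adjusted p = 0.0892) and left that list with 0 calls. DEPTOR fell at the medium dose (−0.67, adjusted p = 0.0465), a call that held in 9 of 20 alternative settings and was lost when any medium-dose library, vehicle replicate 2 or 3, low-dose replicate 2 or 3, or high-dose replicate 1 or 3 was left out. Of 14 hypoxia-induced genes, VEGFA, also an ATF4 target, rose (0.82 ± 0.10, adjusted p = 0.000311), and the median was 0.06. Of 11 immediate early genes, IER3 (0.70 ± 0.10, adjusted p = 0.00156) and FOSB rose, with a median of 0.35. Of the 11, 8 had an unadjusted p under 0.05, all upward, and 5 passed the adjusted p, which 5.77% of all genes did. Across the alternative settings 0 to 4 of them were called, IER3 not with edgeR on vehicle and 1 dose (adjusted p = 0.0712). Of 13 p53 targets, BTG2, an antiproliferative gene, fell from 40.7 ± 2.03 to 20.0 ± 1.90 CPM (−1.02 ± 0.09, adjusted p = 2.93e-05), and SESN1 fell with it. None was called upward by edgeR (1 by DESeq2, and 2 had an unadjusted p under 0.05 upward), and the median was 0.04. Of the 13, 3 passed the adjusted p, among them CDKN1A, which was higher by 0.58 ± 0.09 (adjusted p = 0.0032 by edgeR), just under 1.5-fold.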

How the data were processed

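RNA of HT29 cells was sequenced in 12 libraries, 3 in each of 4 groups. The deposited values are the expected counts that the authors obtained with RSEM, not normalized. Per the submitters' processing notes the reads went through FastQC 0.11.9, Trim Galore 0.6.5, STAR 2.7.3a and RSEM 1.3.3. The gene IDs fit GRCh38, the library kit was a directional one, and the strand setting of RSEM is not given in the sources used here. The treatment note of the libraries names Poria cocos, and grouping followed the titles, which name ACD.

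Expected counts were rounded, filtered with filterByExpr, scaled by TMM and tested with the robust quasi-likelihood test of edgeR 4.0.16 in R 4.3.3, with the 4 groups as terms over all 12 libraries. Benjamini–Hochberg adjustment ran over 15374 genes per dose. The rule for DEGs was that of the study, an adjusted p under 0.05 together with a fold change above 1.5. Log2 CPM used a prior count of 2. SEs came from the F statistic. The common dispersion corresponds to a biological coefficient of variation of 11.2%. CPM per kilobase used the canonical transcript length of GENCODE 44. No 2 libraries were duplicates. p-values measure the spread between these libraries only.

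The 10 effectors and the 11 lists were chosen with earlier results of these data known. Of 199 listed genes 198 had an ID. Named list genes were the DEGs at the high dose (up to 3 with the smallest p in each direction), the DEGs at the other doses and, with none at the high dose, the member with the smallest p. MARS1 and CDKN1A were named after their values were seen. Motifs were searched in RefSeq promoters of 250 bases and, as a choice made after seeing the data, in 1000 bases before to 500 after each start. The tests were tried on simulated data. Alternatives were DESeq2 1.42.0, edgeR on vehicle and 1 dose, DESeq2 size factors, library sizes without mitochondrially encoded genes, other filters, no limit on the fold change, a replicate block and leaving out each library.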

Additional observations from a re-analysis of the deposited data

How the results depend on the processing

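The median log2 fold change of the effectors at the high dose ranged from 1.05 to 1.10 as single libraries were left out (1.09 with all), at the medium dose from 0.05 to 0.13, and at the low dose from 0.024 to 0.144, the last without low-dose replicate 3. No alternative turned a median or a list's count around. List genes called at the medium dose numbered 2, and 4 with DESeq2 or with edgeR on vehicle and 1 dose, 1 with library sizes without mitochondrially encoded genes, 4 with no minimum fold change and 0 to 4 as single libraries were left out (0 without vehicle or medium-dose replicate 2, 4 without high-dose replicate 2, and 1 without vehicle replicate 3, low-dose replicate 2 or 3, medium-dose replicate 1 or 3 or high-dose replicate 3). At the high dose they numbered 35, and 23 with edgeR on vehicle and 1 dose, 62 with no minimum fold change and 31 to 39 as single libraries were left out. At the low dose the number was 0 in each. ATF4 at the high dose lost its call in 7 of 20 alternatives, with values of 0.50 to 0.65, and DDIT3 in 1 (edgeR on vehicle and 1 dose). The cause was not tested. Same-numbered libraries of different groups correlated by −0.50 to 0.37 in their deviations, and differently numbered ones by −0.54 to 0.54. These values showed no pairing by replicate number, but with 3 libraries per group they cannot exclude it. With the replicate block 1 list gene was called at 100 µg/mL and 34 at 500 µg/mL, and 4 of 12 libraries correlated best with their own number. Low levels limit CHAC1, ATF3 and VLDLR, with 33 to 120 reads per vehicle library.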
